A study of Mus musculus with 6 samples.

Results

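Smooth muscle cells and myofibroblasts share a set of contractile genes, and the 7 examined here were Acta2, Tagln, Myh11, Cnn1, Actg2, Lmod1 and Mylk. They were set beside Rgs5, Pdgfrb and Notch3, 3 genes that mark pericytes, the contractile cells wrapped around small vessels. The 10 genes were taken from the deposited table of 57010 genes by their symbols, and each symbol had 1 row. The rule uses no measured value, but the genes and the lists beside them were chosen with earlier results of these data known. FPKM, the deposited unit, is a read count scaled by gene length and by library depth. All 10 passed the filter on low values, an average of 1 FPKM or more across libraries, which left 14588 genes for testing.

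Each of the 6 libraries came from the skin of a different wild-type mouse at the end of a study of diabetic ulcers. The gel given to 3 mice (CST mice 1 to 3) contained CST, spelled out in the title of the series as cortistatin, a somatostatin-like neuropeptide. The gel of the other 3 (Yoda1 mice 1 to 3) contained Yoda1, a synthetic opener of the mechanosensitive cation channel Piezo1. Age, strain, sex, the way diabetes was induced and the length of treatment were not given in the labels, and skin without either agent was not analysed here, so every value sets one agent against the other.

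In smooth muscle, actin filaments slide along smooth muscle myosin once myosin light chain kinase has phosphorylated the myosin light chain. Serum response factor and its cofactors switch on many of these genes through a promoter element called the CArG box. In skin the genes mark vessel walls, the muscles that raise hairs and, for Acta2 above all, the myofibroblasts that contract a healing wound. Pericytes depend on PDGF-B from endothelial cells, received by Pdgfrb, and on Notch ligands, received by Notch3.

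Depth was 23791352 to 29620526 reads per library, and a member held between 63 and 8887 reads in a library. In 2 libraries the mitochondrial genome gave a larger share of all FPKM, 6.72% for CST mouse 1 and 7.61% for Yoda1 mouse 3, where the remaining 4 lay between 3.25% and 3.81%. The labels tag the samples as keratinocytes. The keratinocyte gene Krt14 stood at 5835 FPKM or more, but the endothelial gene Pecam1 was also present at 25.1 to 64.2 and the skeletal muscle gene Ckm at 4.38 to 959, so the libraries were read as whole skin. In bulk tissue, fewer cells of a type and less RNA per cell cannot be told apart.

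Of the 10 contractile and pericyte genes, 9 had overlapping values in CST and Yoda1 skin, and the leiomodin gene Lmod1 did not. Lmod1 was higher in every CST mouse than in every Yoda1 mouse, at 2.39 ± 0.181 against 1.26 ± 0.0499 FPKM (mean ± SD, n = 3 each), but did not pass the test over all genes (limma adjusted p = 0.793). None of the 10 members passed, where limma called 0% of the 14588 genes. At an unadjusted p under 0.05 there was 1 member of 10, against 4.003% of all tested genes. The groups failed to overlap in 1 member of 10, against 6.59% of all tested genes. Of the 10 changes 8 were negative, that is lower in CST, and 9 of the 10 intervals of 95% spanned 0. Over all tested genes 52.8% of changes were negative.

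**Figure D1:**
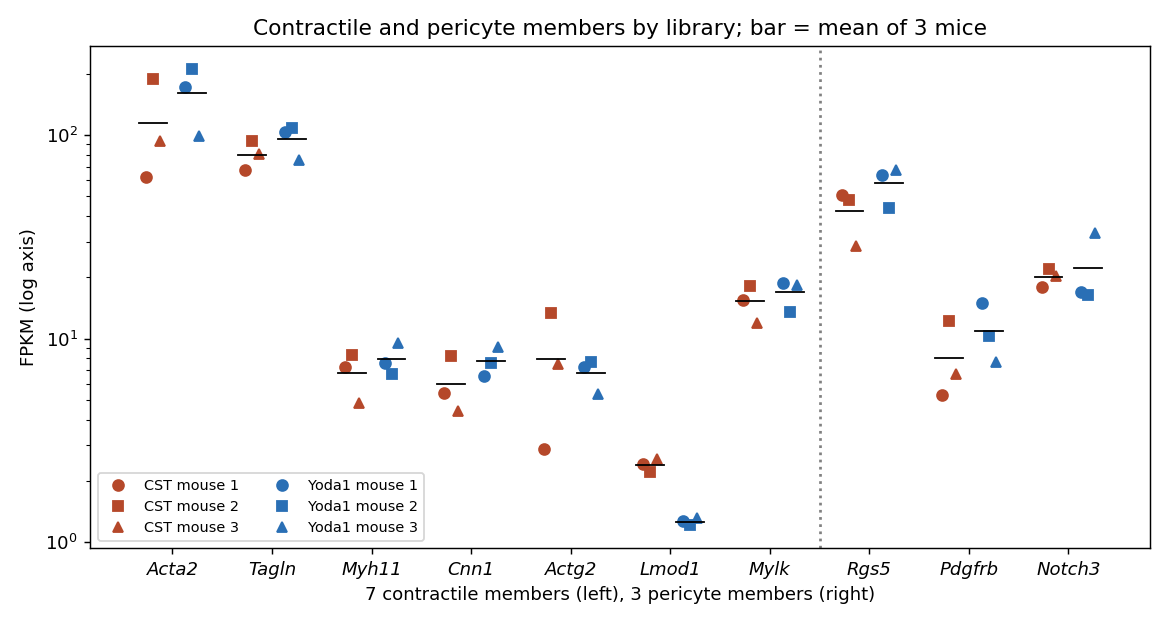
FPKM (log axis) of the 7 contractile and 3 pericyte members in each mouse, CST in red and Yoda1 in blue, with a bar at the mean of 3 mice. Lmod1, between 1.21 and 2.56 FPKM, is the member whose groups separate; in the other 9 the groups overlap.

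Acta2 encodes alpha smooth muscle actin, the usual marker of myofibroblasts (ENSMUSG00000035783, chromosome 19, 34241090 to 34255590 on GRCm38, minus strand). CST mice 1 to 3 had 62.0, 189.8 and 93.1 FPKM, and Yoda1 mice 1 to 3 had 173, 212 and 98.8. CST mouse 2 and Yoda1 mice 1 and 2 were high and the other 3 low, so the groups overlapped. Within the CST group the highest value was 3.06 times the lowest, and within the Yoda1 group 2.15 times. The change, taken throughout as the CST mean less the Yoda1 mean of log2(FPKM + 1), was -0.57 (SE 0.45, 95% interval -1.60 to 0.46, limma adjusted p = 1.000). It was -0.21 without CST mouse 1 and -1.01 without CST mouse 2.

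Actg2 encodes the enteric smooth muscle actin (chromosome 6, 83512905 to 83536265). It measured 2.86, 13.3 and 7.54 FPKM in the CST mice and 7.29, 7.66 and 5.34 in the Yoda1 mice. Both the lowest and the highest value were in CST mice, 4.66-fold apart, and the 3 Yoda1 mice lay between them. Its change was 0.02 (95% interval -1.02 to 1.06), and the 63 reads of CST mouse 1 were the fewest of any member. The actin genes encode near-identical proteins, but how alike their transcripts are in bases was not measured. No source used here gives how reads matching several of them were assigned, so the split of such reads is uncertain.

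Because Acta2 is the best-known target of serum response factor among the members, the bases before its RefSeq start (GRCm38.p6) were searched for the CArG box. In the 250 bases before the start no exact match was found. With 1 of the 6 middle bases allowed to be other than A or T, 2 matches were found, on chr19:34255438-34255467 and chr19:34255388-34255417 (minus strand), shown in 30 bases each with the match in capitals. Both lie within the first exon of the longer GENCODE transcript, in its 5′ UTR.
Acta2 first match: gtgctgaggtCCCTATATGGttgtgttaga
Acta2 second match: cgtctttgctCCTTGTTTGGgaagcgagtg
Of the 32851 promoter entries of the same length, 1.47% held an exact CArG box and 8.59% one with at most 1 such base. The letters TGGGAA, the core bound by the Notch factor RBPJ, overlap the second match on the plus direction of the gene, and 21.6% of the entries held them on either strand. Of the 10 members 6 had an entry, and only Acta2 held any of these matches.

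Lmod1 encodes leiomodin, a nucleator of actin filaments in smooth muscle (ENSMUSG00000048096, chromosome 1, 135324807 to 135368065, plus strand). It measured 2.42, 2.20 and 2.56 FPKM in the CST mice and 1.27, 1.21 and 1.31 in the Yoda1 mice. The spread within each group was small, with the highest value 1.16 times the lowest in CST and 1.08 times in Yoda1, while the group means stood 1.90-fold apart. The values rest on 230, 241 and 294 reads in CST and 148, 140 and 123 in Yoda1. The change was 0.58 (SE 0.20, 95% interval 0.13 to 1.04). At this level the added 1 FPKM lowers the change: it was 0.87 with a pseudocount of 0.1 and 0.92 with limma-voom on recovered reads. In the 16 alternatives in which Lmod1 was tested, the change ran from 0.51 to 0.92. Because its groups do not overlap, left-out mice, library weights or another pseudocount could not turn its sign. With library weights estimated by limma, Lmod1 passed the threshold (adjusted p = 0.0324). In that setting limma called 1348 of the 14588 tested genes. That fit rests mostly on 1 Yoda1 mouse, with weights of 12.8, 0.657 and 0.193 for Yoda1 mice 1 to 3. The unadjusted limma p of Lmod1 was under 0.05 in 12 of the 16 alternatives and 0.0543 to 0.0632 in the others.

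The stretch before the Lmod1 start is printed because it belongs to the 1 member whose groups did not overlap. The bases chr1:135324563-135324806 of GRCm38.p6 (plus strand, from RefSeq) hold none of the searched letters: no CArG box, exact or with 1 other middle base, no TGGGAA and no TATAAA on either strand (12.4% of all entries held TATAAA). This says only that these letters are not in this window.
Lmod1: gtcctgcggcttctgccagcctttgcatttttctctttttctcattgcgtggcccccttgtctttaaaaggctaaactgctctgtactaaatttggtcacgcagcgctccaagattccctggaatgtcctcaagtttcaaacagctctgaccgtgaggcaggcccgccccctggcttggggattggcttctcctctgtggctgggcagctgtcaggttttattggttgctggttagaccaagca

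Tagln encodes transgelin (SM22), an actin-bundling protein of smooth muscle (chromosome 9, 45929619 to 45936058). It measured 67.1, 93.5 and 80.4 FPKM in the CST mice and 104, 108 and 75.5 in the Yoda1 mice. Yoda1 mice 1 and 2 were above all CST mice, and Yoda1 mouse 3 was below 2 of them. The change was -0.25 (SE 0.23, 95% interval -0.79 to 0.29), and -0.13 without CST mouse 1 or -0.41 without Yoda1 mouse 3. Tagln shares 1241 exon bases with the antisense gene Gm48529, which stood at 1.87 to 2.91 FPKM, and 108 with Pcsk7. No source used here gives whether the counting used strand.

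Cnn1 encodes calponin 1, which binds actin and restrains myosin (chromosome 9, 22099216 to 22109630). It measured 5.40, 8.25 and 4.39 FPKM in the CST mice and 6.55, 7.58 and 9.11 in the Yoda1 mice. CST mice 1 and 3 were below every Yoda1 mouse, and CST mouse 2 was above 2 of them. The change was -0.35 (SE 0.27, 95% interval -0.96 to 0.27), and -0.17 without CST mouse 3 or -0.56 without CST mouse 2.

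Myh11 encodes the smooth muscle myosin heavy chain, the most specific marker of mature smooth muscle among the members (chromosome 16, 14194535 to 14291372). It measured 7.24, 8.36 and 4.81 FPKM in the CST mice and 7.56, 6.72 and 9.48 in the Yoda1 mice. Yoda1 mouse 3, which was low for Acta2, was highest, and the groups overlapped. The change was -0.21 (SE 0.26, 95% interval -0.81 to 0.39), and -0.01 without CST mouse 3.

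Mylk encodes myosin light chain kinase (chromosome 16, 34745210 to 35002420). It measured 15.6, 18.2 and 12.0 FPKM in the CST mice and 18.8, 13.5 and 18.4 in the Yoda1 mice. The highest value over all 6 mice was 1.57 times the lowest, the narrowest range of the 10 members. The change was -0.15 (SE 0.24, 95% interval -0.70 to 0.41).

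Of the pericyte markers, Rgs5, a regulator that shortens G protein signals, measured 50.9, 48.2 and 28.7 FPKM in the CST mice and 64.0, 44.0 and 67.4 in the Yoda1 mice (chromosome 1, 169655501 to 169695813). CST mouse 3 was lowest, and Yoda1 mouse 2 fell among the CST values. The change was -0.47 (SE 0.29, 95% interval -1.13 to 0.20), and -0.21 without CST mouse 3.

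Pdgfrb, the PDGF-B receptor (chromosome 18, 61045150 to 61085061), measured 5.28, 12.2 and 6.71 FPKM in the CST mice and 14.9, 10.3 and 7.68 in the Yoda1 mice. CST mice 1 and 3 were below every Yoda1 mouse and CST mouse 2 above 2 of them. The change was -0.43 (SE 0.35, 95% interval -1.23 to 0.37), and -0.20 without CST mouse 1 or Yoda1 mouse 1 and -0.74 without CST mouse 2.

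Notch3, the Notch receptor of mural cells (chromosome 17, 32120820 to 32166852), measured 17.9, 22.1 and 20.3 FPKM in the CST mice and 17.0, 16.4 and 33.0 in the Yoda1 mice. Yoda1 mouse 3 stood above the other 5, and Yoda1 mice 1 and 2 below all 3 CST mice. The change was -0.07 (SE 0.29, 95% interval -0.74 to 0.61), and without Yoda1 mouse 3 it was 0.25. The sum of 8 keratinocyte markers was also highest in Yoda1 mouse 3, at 25309.7 FPKM. It was lowest in Yoda1 mice 1 and 2, at 10815 and 11595. The part of keratinocytes in the Notch3 values was not tested.

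The 2 classes were then compared within each library as the mean log2(FPKM + 1) of their members. The contractile mean stood at 3.65, 4.34 and 3.79 in the CST mice and 4.10, 4.10 and 3.97 in the Yoda1 mice, so the Yoda1 mice lay inside the CST range. CST mice had pericyte means of 4.20, 4.62 and 4.08, and Yoda1 mice 4.73, 4.37 and 4.77. The difference, contractile minus pericyte, came to -0.55, -0.29 and -0.30 under CST and -0.63, -0.27 and -0.80 under Yoda1, with group means of -0.38 ± 0.15 and -0.57 ± 0.27 (SD, n = 3). The group means of that difference stood 0.19 apart, less than the SD of the Yoda1 mice and more than that of the CST mice. The groups overlapped. At a filter of 5 FPKM, which Lmod1 does not pass, the means stood 0.07 apart. The median change was -0.21 for the 7 contractile members and -0.43 for the 3 pericyte members, against -0.01 over all tested genes.

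The members did not follow 1 pattern across mice. CST mouse 1 was lowest for Acta2, Tagln, Actg2 and Pdgfrb, and CST mouse 3 was lowest for Myh11, Cnn1, Mylk and Rgs5. Yoda1 mouse 3 was highest for Myh11, Cnn1, Rgs5 and Notch3, and Yoda1 mouse 2 for Acta2 and Tagln. The ratio of Acta2 to Myh11 ran from 8.57 in CST mouse 1 and 10.4 in Yoda1 mouse 3 to 31.5 in Yoda1 mouse 2. Those 2 libraries with the lowest ratio were also the 2 with the largest mitochondrial share, and the part of that share in the ratio was not tested. The ratio of Rgs5 to Pdgfrb was highest in the same 2 libraries, at 9.64 and 8.78, against 3.95 to 4.29 in the other 4. Acta2 over Pdgfrb varied less, from 11.6 to 20.6.

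**Figure D2:**
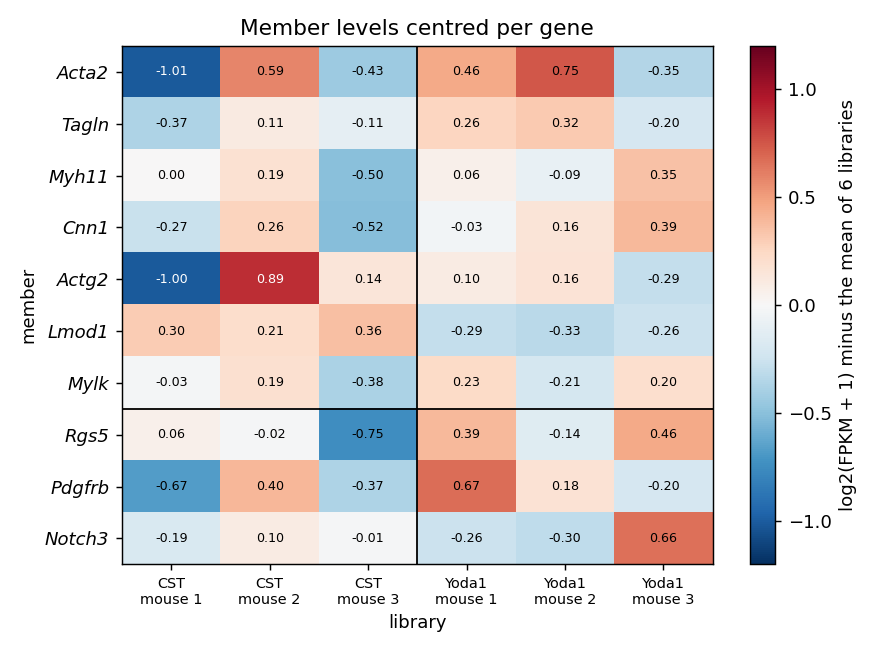
Log2(FPKM + 1) of each member (rows) in each library (columns) minus the gene's mean over the 6 libraries, red above and blue below. Acta2, Tagln, Actg2 and Pdgfrb are lowest in CST mouse 1, Myh11, Cnn1, Mylk and Rgs5 in CST mouse 3, and Lmod1 splits by group.

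By deposited FPKM, which is per length, Acta2 was the most abundant member at 138 ± 61.2 (mean ± SD over 6 libraries), followed by Tagln at 88.1 ± 16.4, Rgs5 at 50.5 ± 14.1 and Notch3 at 21.1 ± 6.18. Mylk at 16.1 ± 2.86, Pdgfrb at 9.51 ± 3.63, Myh11 at 7.36 ± 1.58, Actg2 at 7.34 ± 3.46 and Cnn1 at 6.88 ± 1.78 came next, and Lmod1 was lowest at 1.83 ± 0.632. Tagln lay above Rgs5, Rgs5 above Notch3, Mylk above Pdgfrb and Cnn1 above Lmod1 in 6 of 6 libraries. Acta2 lay above Tagln, and Notch3 above Mylk, in 5 of 6. The neighbours from Pdgfrb to Cnn1 kept their order in only 3 or 4 of 6 libraries and did not differ beyond their spread.

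This order depends on the length behind the FPKM. The length recovered from the steps of the values was within 1 base of the mean length of a gene's GENCODE M21 transcripts in 93.4% of 14394 tested genes, the 10 members included, so short annotated fragments raise a gene's FPKM. For Mylk that length was 2344 bases, although its 8 transcripts run from 393 to 7824 and its exons sum to 11263. For Notch3 it was 3126 bases against 8089 of summed exons. With summed exons in place of that length and the recovered depth, in the same unit otherwise, Mylk stood at 3.34 and moved from rank 5 to 8, and Pdgfrb at 9.40 moved from rank 6 to 4, above Notch3 at 8.16. The length is the same in every mouse, but it sets how large a gene's FPKM is against the added 1.

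Each member was next set beside its paralogues of other tissues. Of the actins, Acta1 of skeletal muscle measured 3272, 2356 and 3538 FPKM in the CST mice and 31.6, 1539 and 140.0 in the Yoda1 mice, a change of 3.97 (95% interval 1.22 to 6.72, limma adjusted p = 0.663). Actc1 of cardiac muscle measured 11.2, 633 and 3.61 under CST and 21.1, 528 and 63.5 in Yoda1. Its change was -1.47 (95% interval -5.73 to 2.80). The mice highest for Acta2, Yoda1 mouse 2 and CST mouse 2, were also the 2 highest for Actc1, and the part of shared reads in this was not tested. In Yoda1 mouse 1 Acta2 measured 173 FPKM, Acta1 31.6 and Actc1 21.1. The cytoplasmic actins Actb and Actg1 had changes of -0.23 and -0.30, neither past the threshold.

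Leiomodins of striated muscle varied far more than Lmod1. Lmod2 measured 50.01, 30.6 and 23.2 FPKM under CST and 0.444, 19.8 and 3.17 in Yoda1 mice, and Lmod3 measured 6.46, 15.5 and 9.82 under CST and 0.457, 10.6 and 1.58 in Yoda1. Both Lmod1 and Lmod2 were higher in every CST mouse than in every Yoda1 mouse. Across the Yoda1 mice Lmod2 spanned 0.444 to 19.8 FPKM while Lmod1 stayed between 1.21 and 1.31. In the same way Mylk2, the skeletal muscle kinase, measured 15.6 ± 9.47 and 0.874 ± 1.09 under CST and Yoda1 skin and Mylk4 9.78 ± 9.03 and 0.188 ± 0.178, beside 15.2 ± 3.13 and 16.9 ± 2.92 for Mylk. Mylk3 stayed below the filter, at up to 0.523.

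Some paralogues of non-muscle cells were more abundant than the smooth muscle forms and some less. Tagln2 stood at 461 to 779 FPKM, and the ratio of Tagln to Tagln2 kept between 0.120 and 0.145 in all 6 libraries. Myh9, a non-muscle myosin, stood at 152 to 231 FPKM, and Myh11 over Myh9 ran from 0.0316 to 0.0459, whereas Myh10, another non-muscle myosin, averaged 3.94 FPKM against 7.36 for Myh11. Cnn2 measured 71.1 ± 9.69 under CST and 89.0 ± 4.29 in Yoda1 mice with no overlap, a change of -0.33 that did not pass the test, close to the -0.35 of Cnn1. Cnn3 (-0.19), Myh10 (-0.16), Myh14 (0.43), Rgs2 (-0.03), Rgs4 (-0.02) and Rgs16 (-0.20) did not pass either, and Tagln3 lay below the filter.

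**Figure D3:**
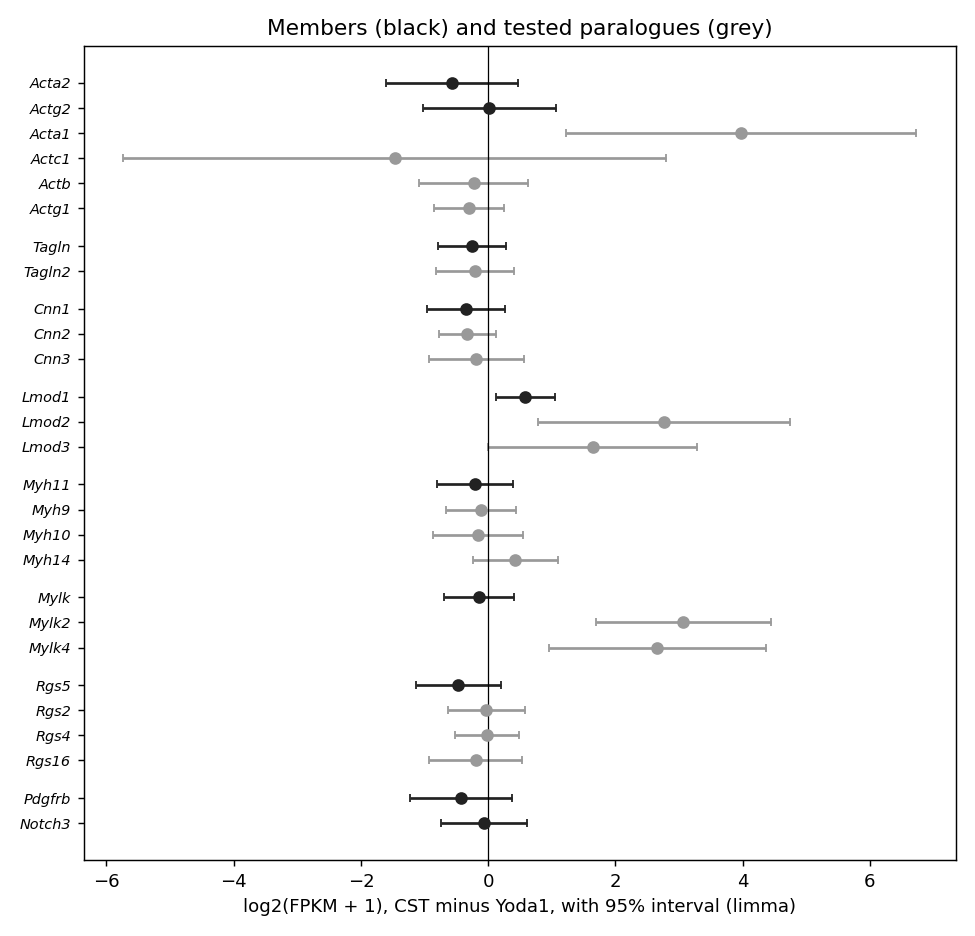
Change of each member (black) and each tested paralogue (grey) in log2(FPKM + 1), positive where CST is higher, with its 95% interval from limma. Intervals of 9 of the 10 members span 0, and the striated muscle paralogues Acta1, Lmod2, Mylk2 and Mylk4 lie at 2.66 to 3.97. The other tested striated paralogues, Lmod3 at 1.64 and Actc1 at -1.47, have intervals that span 0.

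Other genes of the contractile apparatus came from lists written around the members. Of 20 cytoskeletal and anchoring genes of smooth muscle 19 were tested, 0 passed in either direction, 9 changes were positive and 10 negative, and the median was -0.02. In 6 of the 19 the groups did not overlap, 5 of them higher in CST, against 6.59% of all tested genes (659 higher and 303 lower in CST of 14588). Those 5 included Des, desmin, with 849, 729.7 and 826 FPKM in the CST mice and 26.1, 604 and 70.1 in the Yoda1 mice, and the tropomyosin genes Tpm1 (change 1.78) and Tpm2 (1.68), all of which skeletal muscle also expresses. Synpo2, an actin-binding protein of Z discs and smooth muscle, had a change of 1.39. Myl9, the smooth muscle light chain that Mylk phosphorylates, measured 36.5, 98.8 and 61.2 under CST and 72.5, 85.0 and 38.1 in Yoda1, a change of -0.03 (95% interval -1.01 to 0.95).

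Of 20 genes of contraction signalling 16 were tested, 0 passed, and 12 changes were negative with a median of -0.10. Over all tested genes 52.8% of changes were negative. Hspb6, a small heat shock protein of muscle, measured 208, 49.4 and 180.3 FPKM under CST and 8.25, 29.3 and 6.90 in Yoda1 mice. Ppp1r12b, a regulatory subunit of myosin phosphatase found in striated muscle too, measured 11.3 ± 1.91 and 5.93 ± 1.23. Prkg1, the cGMP-dependent kinase that relaxes smooth muscle, measured 3.31, 1.71 and 2.24 under CST and 1.09, 1.26 and 1.09 in Yoda1 (change 0.65, limma adjusted p = 0.947). In all 3 genes, named for the smallest p of the list, each CST mouse was above each Yoda1 mouse. That is 3 of the 16 tested without overlap, against 6.59% of all tested genes. Itpr1, the calcium release channel, had a change of -0.38.

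Of 12 regulators of contractile genes 11 were tested and 0 passed, with a median change of -0.04. Srf measured 61.3 ± 15.2 FPKM under CST and 70.4 ± 12.9 in Yoda1 skin, and its cofactor Mrtfa 19.4 ± 2.25 and 23.1 ± 0.539 with no overlap (change -0.24). Myocd, the cofactor of smooth muscle, lay below the filter at 0.0631 to 0.118. Tgfbr2 (-0.49), Smad7 (0.30) and Foxo4 (0.23) were the other named regulators, and none passed. The groups did not overlap for Smad7 and Foxo4 either, with CST higher in both. Of all tested genes 6.59% did not overlap.

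Around the pericyte members, 13 further pericyte genes were tested, 0 passed, and the median change was -0.04. Cspg4, the NG2 proteoglycan, measured 4.68 ± 0.796 FPKM under CST and 4.84 ± 1.44 in Yoda1 skin. Abcc9, a potassium channel subunit of mural cells, was higher in each CST mouse, at 5.43, 2.66 and 2.59 against 1.68, 1.79 and 1.29 (change 0.77, limma adjusted p = 0.942). All 14 skeletal muscle markers had positive changes too, and the part of skeletal muscle in Abcc9 was not tested. Anpep had a change of -0.80, Tbx18 -0.58 and Angpt1 -0.39. The ligand gene Pdgfb measured 19.3 ± 6.62 and 17.2 ± 6.51, and the 5 genes of the PDGF list had a median of -0.29 with 0 passing. Of these, Pdgfra (-0.35), Pdgfd (-0.40), Pdgfc (-0.29) and Pdgfa (0.21) had the smallest p. Of the Notch list 11 of 12 genes were tested and 0 passed, with a median of 0.10. The ligands Jag1 and Dll4 measured 18.0 ± 1.97 and 3.37 ± 0.875 under CST and 17.2 ± 8.47 and 4.27 ± 0.771 in Yoda1, and Hey1 (0.21), Rbpj (-0.24) and Notch1 (0.16) did not pass.

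The myofibroblast list held 16 matrix and surface genes, all 16 tested, and all 16 changes were negative, with a median of -0.72 and 0 past the threshold. Of all tested genes 52.8% were negative, and the median of all was -0.01. The list was written with earlier results of these data known, so its count is no independent evidence of a direction. Lists of other cells had negative changes too: 7 of 8 general fibroblast markers (median -0.36), 7 of 7 macrophage markers (-0.83) and 6 of 6 adipocyte markers (-0.69), with 0 past the threshold. Postn, periostin, measured 333, 303 and 158 FPKM under CST and 708, 387 and 434 in Yoda1 mice, with no overlap (change -0.96, limma adjusted p = 0.965). Cdh11 (-0.83), Adam12 (-1.09) and Col3a1 (-0.74) overlapped. The list summed to 3068, 5476 and 4602 FPKM under CST and to 9883, 8769 and 3245 under Yoda1, so Yoda1 mouse 3 fell among the CST mice. The general fibroblast markers summed to 1786, 2358 and 1938 under CST and to 4349, 3872 and 1552 under Yoda1, with Yoda1 mouse 3 again low.

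Markers of other cell types were read in the same libraries. All 14 skeletal muscle markers had positive changes, with 13 not overlapping, where 52.8% of all tested genes had negative changes and 6.59% did not overlap. Their sum ran from 6831 to 13862 FPKM in CST and from 122 to 5198 in Yoda1 mice, with none listed at 0. Yoda1 mouse 2, with the 5198, had an Lmod1 of 1.21 FPKM, and Yoda1 mouse 1, with the 122, one of 1.27. In CST mice 1 to 3 the skeletal muscle sums were 13862, 6831 and 12464 FPKM, beside an Lmod1 of 2.42, 2.20 and 2.56. The 10 endothelial markers summed to 143 to 321 in CST and 141 to 315 in Yoda1 mice. All 10 changes were negative, with a median of -0.19. Endothelial sums were lowest in CST mouse 1 and Yoda1 mouse 3, which were also low for Acta2. The sum of the 8 neutrophil markers was largest in CST mouse 1, at 11243, then in Yoda1 mouse 3, at 4139, and lay from 758 to 1898 elsewhere. All 8 neutrophil changes were positive (median 0.97), with 3 not overlapping and 0 past the threshold. Macrophage markers summed to 1249 to 1756 FPKM in CST mice and to 3821, 4421 and 1273 in Yoda1 mice 1 to 3, and adipocyte markers to 306 to 419 and 375 to 1413. All 8 keratinocyte markers had positive changes (median 0.20), with sums of 13614 to 20601 in CST and 10815 to 25309.7 in Yoda1 mice. The 6 Schwann cell markers had 4 positive changes and a median of 0.13. The part of these cell types in the members' values was not tested.

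**Figure D4:**
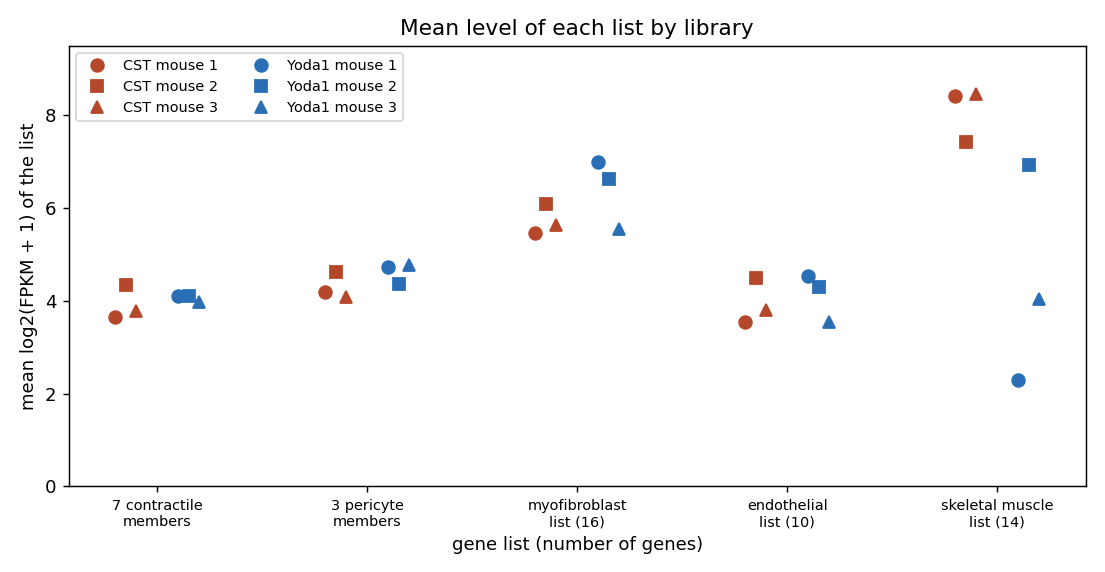
Mean log2(FPKM + 1) of 5 gene lists in each mouse, CST in red and Yoda1 in blue. The contractile means lie between 3.65 and 4.34 with overlapping groups, while the skeletal muscle list runs from 2.30 in Yoda1 mouse 1 to 8.47 in CST mouse 3.

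Genes with the profile most like the members over the 6 libraries were found by the root mean square difference of centred log2(FPKM + 1). Closest to the mean contractile profile were Usb1 (0.0332), Mthfd2 (0.0567), Muc1 (0.0577), Panx1 (0.0586), Akt1 (0.0597), Trappc14 (0.0612), Ric8a (0.0641) and Foxred2 (0.0669), beside a profile of size 0.224. The members themselves lay farther off, from 0.166 for Tagln to 0.446 for Acta2. Closest to the pericyte profile were Slc22a21 (0.0679), Tpbg (0.0783), Clic4 (0.0821), Clca3a1 (0.0827) and Wwc2 (0.0828), with Rgs5 at 0.229, Notch3 at 0.313 and Pdgfrb at 0.345.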

How the data were processed

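Skin RNA of 6 mice was sequenced, and the authors deposited FPKM per gene for each mouse in 1 table without counts. No source used here gives the aligner, the counting tool or strandedness, and the submitters' processing notes name GRCm38 and mm10. Groups and mouse numbers came from the sample titles, and 0 columns of values lacked a sample. Positions were looked up by Ensembl identifier in GENCODE M21 (GRCm38), because only 2.81% of deposited starts equalled the GRCm38 start. Promoter bases are from RefSeq (GRCm38.p6).

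The test was limma 3.58.1 in R 4.3.3 (two-sided, eBayes trend switched on) of log2(FPKM + 1) for the 14588 genes averaging 1 FPKM or more, and a gene was called at a Benjamini-Hochberg adjusted p under 0.05. Folds on this scale understate changes of low genes. Exact permutation of 3 against 3 cannot give a p below 0.1, so none was run. Steps between low FPKM values gave the depth of each library. With it 14587 of the 14588 tested genes gave whole reads in every library within 0.002 reads, and with wrong depths 0 of 487 did. The recovered reads, 99.66% to 99.70% of the depth, were used for a limma-voom alternative. A read number by itself shows counting error only, whereas that fit also takes in the spread between mice. The script was tested on simulated data.

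The members and lists were chosen with earlier results of these data known. The named genes are the 10 members, their paralogues, 9 fixed genes, up to 4 genes with the smallest p of each pathway list, and the 8 and 5 nearest profiles; Krt14, Pecam1 and Ckm were added as marker checks, and the overlapping genes Gm48529 and Pcsk7 by position. Alternatives covered the pseudocount, the filter, the scaling, the variance model, library weights, recovered reads, a replicate block and left-out mice.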

Additional observations from a re-analysis of the deposited data

How the results depend on the processing

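Of 17 alternatives, 14 left the count of called genes at 0. With library weights (limma), from 0.193 for Yoda1 mouse 3 to 12.8 for Yoda1 mouse 1, 1348 genes were called, 655 of them higher in CST. Leaving out 1 mouse in turn gave 0 to 136 called genes, with 8 without CST mouse 2 and 136 without Yoda1 mouse 2, and the members were not among the calls there. The median change stayed negative in all 17 for the contractile members (-0.36 to -0.04) and the pericyte members (-0.58 to -0.20). The contractile minus pericyte difference stayed positive (0.07, where the filter left out Lmod1, to 0.34). Fits without the eBayes trend, without a filter or with a replicate block cannot move these changes, and the left-out sets share most mice. The difference also takes no library weights. The 17 are therefore not independent support. Acta2 (-1.01 to -0.21), Tagln (-0.41 to -0.13), Myh11 (-0.35 to -0.01), Rgs5 (-0.66 to -0.21) and Pdgfrb (-0.74 to -0.20) were negative in all 17, and their order in size turned between alternatives. Lmod1 ran from 0.51 with quantile normalization to 0.92 with limma-voom on recovered reads. Actg2 turned negative with limma-voom on recovered reads (-0.0013), median-of-ratios scaling (-0.0057), a pseudocount of 0.1 (-0.013) and quantile normalization (-0.033), and ran from -0.42 without CST mouse 2 to 0.52 without CST mouse 1. Notch3 was 0.30 with library weights and 0.32 without CST mouse 1 and Yoda1 mouse 3 together, and ran from -0.23 to 0.25 with 1 mouse left out. Cnn1 was 0.0549 with library weights and Mylk 0.0078 without CST mouse 3, the upper end of its range from -0.29. The cause of these turns was not tested. Lmod1 was not tested at a filter of 5 FPKM, since its mean is lower.

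The mouse numbers are shared between the groups but name different animals. Deviations from the group mean correlated across genes at -0.08, 0.21 and -0.20 for mice numbered 1, 2 and 3, and not every mouse correlated best with its own number. Deviations from a mean of 3 mice depend on each other, so these values cannot decide whether mice of the same number share anything. With mouse number as a replicate block limma called 0 genes, 680 had an unadjusted p under 0.05 against 584 without it, and no call of a member changed. Leaving out a mouse leaves 2 in its group.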
